A study of Mus musculus with 4 samples.

Results

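Oxidative phosphorylation draws most of its protein subunits from the nuclear genome, and 90 of the 16470 gene symbols in the mRNA table belonged to it. They were taken by name: symbols starting with Nduf (45 genes, complex I), Sdh followed by a to d (6 genes, complex II), Uqcr (8 genes, complex III), Cox followed by 4 to 8 (14 genes, complex IV) and Atp5 (17 genes, complex V). No measured value entered the choice, and each gene had 1 transcript row. The 45 Nduf genes held 7 core subunits of the catalytic arms, 31 other subunits and 7 assembly factors named Ndufaf, and the 6 Sdh genes held 4 subunits with the assembly factors Sdhaf1 and Sdhaf2. A few names no longer match the protein's place or the current symbol. Ndufa4, first described with complex I, is now placed with cytochrome c oxidase, and the current symbols of Atp5f1, Atp5s and Atp5sl are Atp5pb, Dmac2l and Dmac2. All were counted by the older name, Ndufa4 in complex I and the others in complex V, wherever the protein is now placed.

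The study looked for RNAs bound by mutant Dis3l2, a 3′ to 5′ exoribonuclease that degrades uridylated RNA, in C57BL/6 mouse embryonic stem cells. The cells were at passages 25-30, adapted to gelatin without feeders and kept in LIF and serum. There were 4 libraries, each the only one of its group: the anti-FLAG M2 gel immunoprecipitate (IP) of cells transfected with FLAG-tagged mutant Dis3l2, the IP of mock-transfected cells, and RiboMinus-selected input RNA of each. The mock IP gives the background of the gel. The labels name neither the mutation nor the share of cells transfected, and no such selection is described for the IP RNA, so IP over input also compares 2 preparations. With 1 library per group there is no replicate check, and no difference was tested. Levels are given as reads in a library.

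The respiratory chain passes electrons from NADH (complex I) and succinate (complex II) through ubiquinol to complex III, cytochrome c and complex IV, which reduces oxygen. The proton gradient built on the way drives complex V, the ATP synthase. Pluripotent stem cells rely heavily on glycolysis, although the respiratory chain is present and active in mouse embryonic stem cells. Promoters of many of these genes carry sites for the transcription factors NRF1 and GABP (also called NRF2), which tie their expression to that of other mitochondrial genes.

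In the mRNA table the mutant IP held 2275647 reads, the mock IP 1860030, the mutant input 307324 and the mock input 291175. Lars2 alone held 52.0% of the mutant IP, 58.6% of the mock IP, 33.3% of the mutant input and 34.8% of the mock input. The deposited value is the number of reads divided by one factor per library: 2.7 for the mutant IP, 2.5 for the mock IP, 1.8 for the mutant input and 2.5 for the mock input. Folds below are ratios of these values with an exact 95% interval that covers counting error only, and log2 ratios add 1 to each value, which understates the change of low genes. Where a library had 0 reads, the fold is a bound against 3 reads in that library. This bound leaves out counting error in the other library and can exceed the exact 95% limit. For Ndufv2 between the IPs the bound was 9.26 and the exact lower limit 7.08. For Sdha in the mutant IP over its input they were 39.8 and 32.0. Values were not divided by transcript length, so no gene's level is set against another gene's. Read numbers were clumped: 3160 genes had 0 reads in the mutant IP, 280 had 1 and 340 had 7, and the mock IP had 3557 genes at 0, 336 at 1 and 404 at 6. Intervals do not cover such clumping. Reads of Dis3l2 itself numbered 127 in the mutant IP, 21 in the mock IP, 7 in the mutant input and 3 in the mock input, and the labels do not say whether these came from the construct. All 10 listed stem cell markers, such as Pou5f1 and Nanog, were detected in both IPs, and together had 3472 reads in the mutant IP, 2317 in the mock IP, 128 in the mutant input and 168 in the mock input. The lists for 6 other cell types, each with only 4 genes in the mRNA table, were lower in sum. They had 16 to 166 reads in the mutant IP, 20 to 111 in the mock IP, 5 to 19 in the mutant input and 0 to 36 in the mock input. Cdx2 and Mixl1 had 0 reads in every library, but the other genes of these lists were read in at least 1. Eomes, for example, had 16 reads in the mutant IP, 9 in the mock IP, 17 in the mutant input and 34 in the mock input. Fibroblast markers had 159 reads in the mutant IP, 66 in the mock IP, 16 in the mutant input and 13 in the mock input. Striated muscle markers had 166 reads in the mutant IP, 111 in the mock IP, 16 in the mutant input and 0 in the mock input. Values summed over the stem cell, fibroblast, endoderm, ectoderm and muscle lists were higher in both mutant libraries than in the mock ones. Mesoderm markers were lower in both (5.93 against 8 in the IPs, 9.44 against 14.4 in the inputs). Trophectoderm markers were lower in the mutant IP (7.41 against 15.2) and higher in the mutant input (2.78 against 1.2). All genes other than the members and Lars2 were together 1.31-fold higher in the mutant IP and 1.5-fold higher in the mutant input. The part of these lists in the results was not tested.

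The promoters of 4 genes, picked by hand, are shown as examples, and no ratio in this report depends on them. Sdha and Cox7a2l stood highest in the mutant relative to the mock once input is taken into account. Atp5e was read in the mutant IP and not in the mock IP. Cox6a1 is one of 6 members with at least 20 reads over both inputs. Each line gives 120 bases that end just before the transcription start, from RefSeq on GRCm38.p6, all on the minus strand. The positions are chr13:74350241-74350360 for Sdha, chr5:115348959-115349078 for Cox6a1, chr2:174464102-174464221 for Atp5e and chr17:83514334-83514453 for Cox7a2l. Capitals mark matches to the NRF1 core or the ETS core to which GABP binds.
Sdha: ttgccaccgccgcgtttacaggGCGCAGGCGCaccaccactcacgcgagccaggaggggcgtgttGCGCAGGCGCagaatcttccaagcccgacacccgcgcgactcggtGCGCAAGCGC
Cox6a1: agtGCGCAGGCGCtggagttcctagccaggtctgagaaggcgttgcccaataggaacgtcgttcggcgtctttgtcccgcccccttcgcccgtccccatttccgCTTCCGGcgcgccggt
Atp5e: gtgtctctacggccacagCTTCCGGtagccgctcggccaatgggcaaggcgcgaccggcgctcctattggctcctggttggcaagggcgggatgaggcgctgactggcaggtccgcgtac
Cox7a2l: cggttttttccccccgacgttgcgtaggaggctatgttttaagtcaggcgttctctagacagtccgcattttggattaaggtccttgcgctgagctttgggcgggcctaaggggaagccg
The Sdha window held the NRF1 core 3 times, Cox6a1 held 1 NRF1 and 1 ETS core, Atp5e held 1 ETS core, and Cox7a2l held none of the letters searched. Promoters that are not shown include those of Ndufa13, Ndufaf7 and Atp5b, also among the 6 members with that input depth, and of Ndufv2. These held none of the letters searched either.

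RefSeq promoters were matched for 75 of the 90 genes, which had 81 promoters. The 250 bases before each start were searched on both strands for GCGC, any base, then TGCGC (NRF1; GCGCA, any base, then GCGC on the other strand), CCGGAAG (ETS; CTTCCGG) and AAGATGGC (YY1; GCCATCTT), none of which holds another. The NRF1 core was in 15 of the 81 promoters (18.5%), against 5.18% of the 21255 promoters of all 17486 protein-coding genes. The ETS core was in 14 (17.3%), against 8.99%, and the YY1 core in 2 (2.47%), against 1.49%. Any of them was in 27 (33.3%), against 14.5%. Median GC content of the windows was 57.6% for the members and 55.6% for all genes. A match describes these letters and shows no binding.

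Most members were read in the IPs and few in the inputs. At least 1 read was found for 82 of the 90 genes in the mutant IP, 70 in the mock IP, 35 in the mutant input and 29 in the mock input. The shares were 91.1% of members and 80.8% of all genes in the mutant IP, 77.8% against 78.4% in the mock IP, 38.9% against 52.0% in the mutant input, and 32.2% against 50.8% in the mock input. The median member had 21 reads (mutant IP) or 13 reads (mock IP), against 22 and 15 for the median gene in the mutant and mock IPs, and 0 in both inputs, against 1 in each. Only 17 members were read in all 4 libraries. Ndufa5 and Ndufc1, both complex I subunits of the group outside the catalytic core, had 0 reads in every library, which allows up to 3 reads in each. Ndufb2 and Ndufb3 had 0 reads in both IPs as well. Inputs gave Ndufb2 1 read (mutant) and 0 reads (mock), and Ndufb3 7 reads each.

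**Figure D1:**
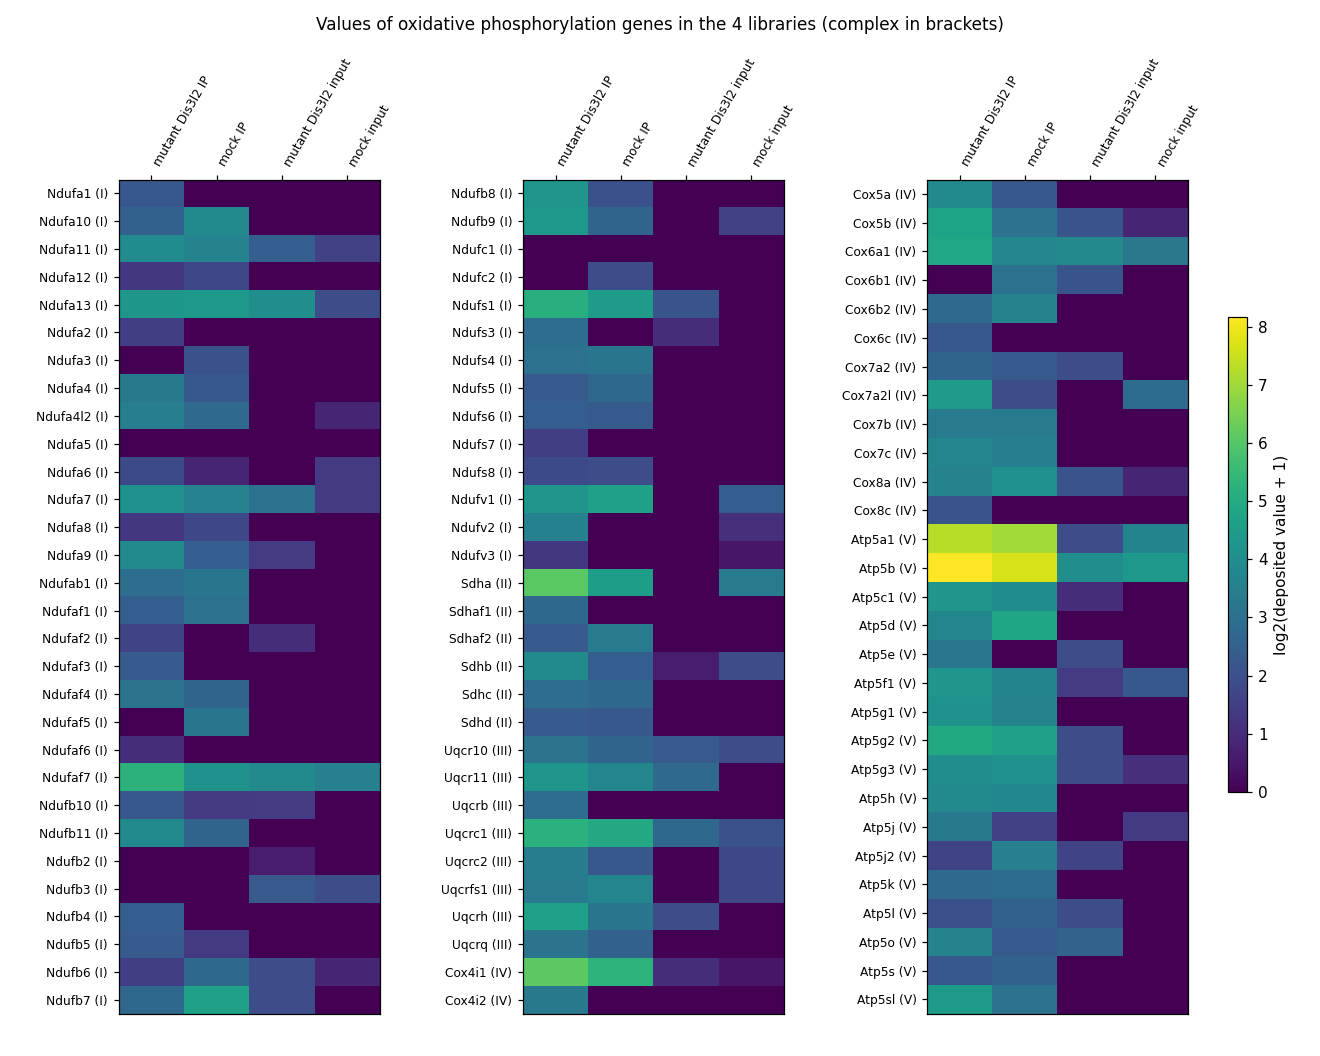
Heat map of log2(deposited value + 1) for 89 of the 90 genes (rows, by complex) in the mutant IP, mock IP, mutant input and mock input (columns), 1 library each. Both IP columns hold most of the colour, and most genes are at 0 in the inputs, where 35 (mutant) and 29 (mock) of all 90 were read.

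Members took 0.348% of the reads outside Lars2 in the mutant IP (exact 95% interval 0.337 to 0.360), 0.324% in the mock IP (0.311 to 0.337), 0.128% in the mutant input (0.113 to 0.145) and 0.145% in the mock input (0.128 to 0.163). The share was thus higher in each IP than in its input, and the 2 IPs differed by far less than IP and input did. Atp5b and Atp5a1, the β and α subunits that form the catalytic head of ATP synthase, held 774 and 421 of the 3808 member reads in the mutant IP.

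Between the mutant IP and the mock IP, which asks which RNAs depend on the tagged protein, the genes as a group were close to the rest of the transcriptome. Their summed values were 1.41-fold higher in the mutant IP (1.34 to 1.49; 3808 against 2495 reads), beside 1.31-fold for all other genes without Lars2. After the 4 libraries were centred on the median of genes read in all of them, the sum was 1.10-fold higher. Of the 86 members measured in at least 1 IP, 13 were at least 4-fold higher in the mutant IP and 3 at least 4-fold lower. Over all 14273 features measured, 10.1% were at least 4-fold higher and 5.74% at least 4-fold lower. The median log2 ratio was 0.52 for the members and 0.38 for all features. Centring left 2 of 80 members at least 4-fold higher and 3 lower, beside 2.28% and 1.95% of features, and the median was 0.14 for the members and 0.02 for all features.

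Of the 13 genes counted as higher, 11 had 0 reads in the mock IP, and all 3 counted as lower (Ndufa3, Ndufaf5 and Cox6b1) had 0 reads in the mutant IP. Among the 23 measured members with fewer than 20 reads over both IPs, 8 were at least 4-fold higher and 2 lower, beside 19.1% and 15.3% of all features of that depth, and the median log2 ratio was 1.31 against 0.31 for those features. Among the 63 members with at least 20 reads, 5 were at least 4-fold higher and 1 lower, and the median was 0.31. The same depth gave 6.8% of 10479 features at least 4-fold higher and 2.28% lower, and the median was 0.39. The members' counts at this depth were thus near those of all features. The 16 members read in the mutant IP and not in the mock IP, and the 4 read in the mock IP and not in the mutant IP, had at most 30 reads each. They were 17.8% and 4.44% of the members, beside 11% and 8.63% of all genes.

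**Figure D2:**
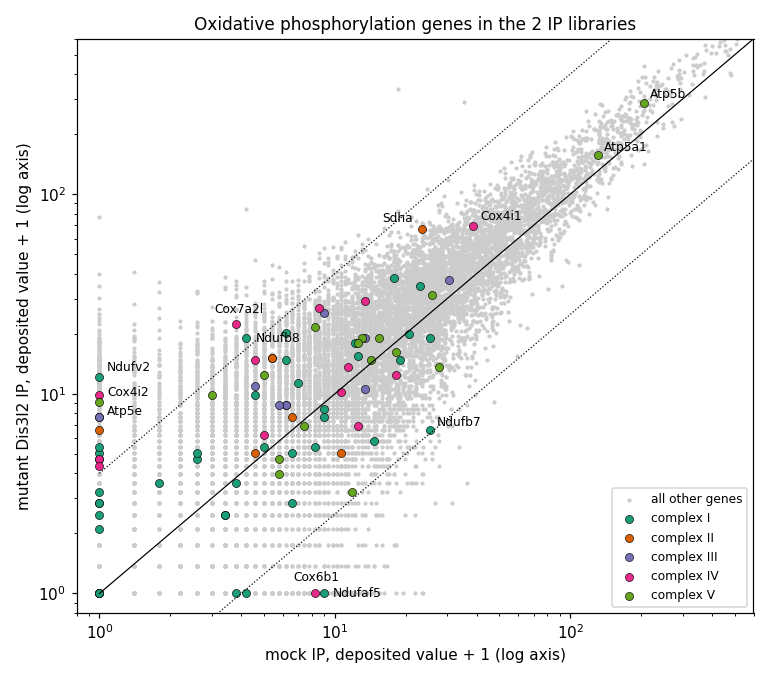
Deposited value plus 1 of each gene in the mutant IP against the mock IP on log axes, with members coloured by complex and other genes in grey. The solid line marks equal values and the dotted lines 4-fold, and the members past 4-fold lie mostly at low values or on the axis where the mock IP had 0 reads.

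Complexes differed in their summed values between the IPs. Complex II was 2.21-fold higher in the mutant IP (1.77 to 2.77), complex IV 1.76-fold (1.53 to 2.03), complex III 1.59-fold (1.32 to 1.91), complex I 1.31-fold (1.19 to 1.45) and complex V 1.28-fold (1.19 to 1.38). Complexes I and V were thus near the 1.31-fold of all other genes, and after centring their ratios were 1.02 and 0.992, while complexes II, III and IV stayed at 1.71, 1.23 and 1.36. The complex II sum turned on 1 gene: without Sdha it was 1.48-fold higher (1.06 to 2.10). Complex IV was 1.73-fold higher (1.46 to 2.05) without its most-read gene Cox4i1. These intervals treat reads as independent and say nothing about spread between cultures.

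**Figure D3:**
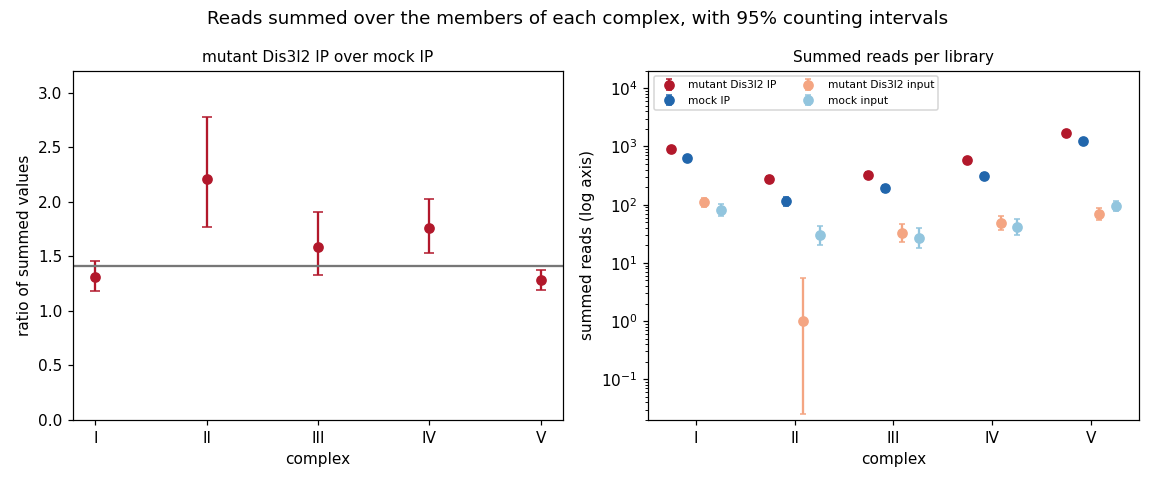
Left, ratio of summed values (mutant IP over mock IP) for each complex with exact 95% intervals, and a grey line at the 1.41 of all 90 genes. Right, summed reads of each complex in the 4 libraries with exact Poisson 95% intervals, with both IPs above both inputs in every complex.

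Complex V had 1706 reads in the mutant IP against 1235 in the mock IP, and 70 and 95 in the mutant and mock inputs. All 17 genes were measured between the IPs. Of them 1 was at least 4-fold higher and none lower, beside 10.1% and 5.74% of all features. The median log2 ratio was 0.28. Atp5b had 774 reads in the mutant IP, 511 in the mock IP, 27 in the mutant input and 49 in the mock input. It was 1.40-fold higher in the mutant IP than in the mock IP (1.25 to 1.57). Atp5a1 had 421 reads in the mutant IP, 324 in the mock IP, 5 in the mutant input and 30 in the mock input, a 1.20-fold difference between the IPs (1.04 to 1.39). Both genes lay near the 1.31-fold of all other genes, and the sign of Atp5a1 turned under centring.

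The 3 genes for subunit c, which encode the same mature protein of the rotor ring, did not move together beyond their intervals. Atp5g1 had 46 and 29 reads in the mutant and mock IPs and 0 in both inputs, a fold of 1.47 (0.903 to 2.42). Atp5g2 had 82 reads in the mutant IP, 62 in the mock IP, 5 in the mutant input and 0 in the mock input (1.22-fold between the IPs, 0.870 to 1.73, with a sign that turned under centring). Atp5g3 had 41 reads in the mutant IP, 43 in the mock IP, 5 in the mutant input and 3 in the mock input (0.883-fold, 0.561 to 1.39). All 3 intervals include 1, and the labels do not say how reads shared by these genes or their pseudogenes were assigned.

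The small subunits of complex V went both ways. Atp5e, the ε subunit of the central stalk, had 22 reads in the mutant IP, 0 in the mock IP, 5 in the mutant input and 0 in the mock input, at least 6.79-fold higher in the mutant IP. It was the only member of complex V past 4-fold, and it was also read in the mutant input alone. Atp5d, the δ subunit of the same stalk, had 34 reads in the mutant IP against 67 in the mock IP and 0 in both inputs, a fold of 0.470 (0.301 to 0.720). Atp5j2, the membrane subunit f, had 6 reads in the mutant IP against 27 in the mock IP, with 4 in the mutant input and 0 in the mock input, a fold of 0.206 (0.0695 to 0.509). Thus 2 of the named small subunits were lower in the mutant IP while all other genes together were higher. Without Atp5a1 and Atp5b, complex V was 1.18-fold higher in the mutant IP (1.04 to 1.35).

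Complex I had 915 and 646 reads in the mutant and mock IPs, and 110 and 81 in the mutant and mock inputs. Of its 41 genes measured between the IPs, 6 were at least 4-fold higher and 2 lower, beside 10.1% and 5.74% of all features. The median log2 ratio was 0.59. At 20 or more reads the median over 23 genes was 0.29. Among the core subunits, Ndufs1, the largest iron-sulfur subunit of the NADH arm, had 91 reads in the mutant IP, 55 in the mock IP, 6 in the mutant input and 0 in the mock input and was 1.53-fold higher in the mutant IP (1.08 to 2.18). Ndufv2, a further iron-sulfur subunit of that arm, had 30 reads in the mutant IP, 0 in the mock IP, 0 in the mutant input and 3 in the mock input, at least 9.26-fold higher in the mutant IP. This was the largest bound among members with at least 20 reads over both IPs. Its partner Ndufv1, which binds NADH, had 49 reads in the mutant IP against 61 in the mock IP (0.744-fold, 0.5 to 1.10), so the pair was split between the IPs.

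Among the other complex I subunits, genes of the membrane arm stood on both sides of equality. Ndufb8 had 49 reads in the mutant IP against 8 in the mock IP, with 0 in both inputs, a fold of 5.67 (2.66 to 13.9). Ndufb9 had 52 reads in the mutant IP, 13 in the mock IP, 0 in the mutant input and 5 in the mock input and was 3.70-fold higher in the mutant IP (1.99 to 7.41). Ndufb7 had 15 reads in the mutant IP against 61 in the mock IP, with 5 in the mutant input and 0 in the mock input, a fold of 0.228 (0.120 to 0.405). For all 3 the interval left out 1. Ndufa10 had 13 reads in the mutant IP against 34 in the mock IP and 0 in both inputs, a fold of 0.354 (0.171 to 0.688). Ndufa13, also known as GRIM-19, had 51 reads in the mutant IP against 49 in the mock IP (0.964-fold), but 28 in the mutant input and 7 in the mock input. Ndufa4l2, a paralog of Ndufa4 induced by hypoxia, had 28 reads in the mutant IP, 15 in the mock IP, 0 in the mutant input and 2 in the mock input, a fold of 1.73 between the IPs.

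Of the 7 complex I assembly factors, Ndufaf7, a mitochondrial protein methyltransferase, was read most, with 100 reads in the mutant IP, 42 in the mock IP, 25 in the mutant input and 27 in the mock input. It was 2.20-fold higher in the mutant IP (1.52 to 3.24), while the inputs gave similar read numbers. Ndufaf5, which hydroxylates Ndufs7, had 0 reads in the mutant IP against 20 in the mock IP, at least 7.20-fold lower in the mutant IP, and 0 in both inputs. It was the only member with at least 20 reads over both IPs that was at least 4-fold lower.

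Complex II was carried by Sdha, its flavoprotein, which oxidises succinate and also serves the tricarboxylic acid cycle. Sdha had 179 reads in the mutant IP, 56 in the mock IP, 0 in the mutant input and 23 in the mock input. It was 2.96-fold higher in the mutant IP than in the mock IP (2.18 to 4.07) and at least 5.52-fold lower in the mutant input than in the mock input. Sdhb, the iron-sulfur subunit, had 38 reads in the mutant IP, 11 in the mock IP, 1 in the mutant input and 7 in the mock input and was 3.2-fold higher in the mutant IP (1.60 to 6.94). Both catalytic subunits stood higher in the mutant IP and had fewer reads in the mutant input, for Sdhb within counting error. The membrane anchors stood elsewhere, with 18 and 14 reads for Sdhc in the mutant and mock IPs (1.19-fold, 0.559 to 2.59) and 11 and 9 for Sdhd (1.13-fold, 0.426 to 3.09), and 0 reads in both inputs, with signs that turned under centring. Sdhaf2, which inserts FAD into Sdha, had 11 reads in the mutant IP against 24 in the mock IP, a fold of 0.424 (0.188 to 0.900). Of the 6 genes measured, 1 was at least 4-fold higher (Sdhaf1, 15 reads in the mutant IP against 0 in the mock IP) and none lower. All features gave 10.1% higher and 5.74% lower. The median log2 ratio of complex II was 0.85.

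Zeroes beside high read numbers in the paired library occurred throughout the table. Of 8607 genes with at least 20 mutant IP reads, 259 (3.01%) had 0 reads in the mock IP, and so had 3 of 47 members (6.38%). Of 1443 genes with at least 20 mock input reads, 23 (1.59%) had 0 in the mutant input, and among 5 members this was Sdha.

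Complex III had 326 and 190 reads in the mutant and mock IPs, and 33 and 27 in the mutant and mock inputs. All 8 genes were measured, 1 was at least 4-fold higher (Uqcrb, 18 reads in the mutant IP against 0 in the mock IP) and none lower. All features gave 10.1% higher and 5.74% lower. The median log2 ratio of complex III was 0.56. Uqcrc1, a core protein of the matrix side, had 98 reads in the mutant IP, 74 in the mock IP, 10 in the mutant input and 8 in the mock input (1.23-fold between the IPs), with a sign that turned under centring. Uqcrh, the hinge protein that helps cytochrome c1 meet cytochrome c, had 66 reads in the mutant IP, 20 in the mock IP, 5 in the mutant input and 0 in the mock input and was 3.06-fold higher in the mutant IP (1.83 to 5.32). Uqcr11, a small membrane subunit, had 49 and 31 reads in the mutant and mock IPs (1.46-fold), and 11 and 0 in the mutant and mock inputs. Uqcr10, also a small subunit, had 21 reads in the mutant IP, 13 in the mock IP, 7 in the mutant input and 7 in the mock input (1.5-fold between the IPs). Uqcrfs1, the Rieske iron-sulfur protein, had 26 reads in the mutant IP against 31 in the mock IP (0.777-fold, 0.443 to 1.35).

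Complex IV had 589 and 310 reads in the mutant and mock IPs, and 49 and 42 in the mutant and mock inputs. Of its 14 genes 4 were at least 4-fold higher in the mutant IP and 1 lower, beside 10.1% and 5.74% of all features. Among the higher genes, Cox4i2, Cox6c and Cox8c had 0 reads in the mock IP. The median log2 ratio was 0.99, the highest of the 5 complexes, and 0.85 over the 11 genes with at least 20 reads. Cox4i1, the ubiquitous form of subunit 4, had 185 reads in the mutant IP, 94 in the mock IP, 2 in the mutant input and 1 in the mock input and was 1.82-fold higher in the mutant IP (1.41 to 2.36). Cox5b, a matrix-side subunit that holds zinc, had 70 reads in the mutant IP, 19 in the mock IP, 6 in the mutant input and 2 in the mock input (3.41-fold, 2.03 to 6.00), and Cox5a, next to it, had 37 reads in the mutant IP against 9 in the mock IP and 0 in both inputs (3.81-fold, 1.8 to 8.97). Cox6a1, the liver-type form of subunit 6a, had 76 reads in the mutant IP, 31 in the mock IP, 24 in the mutant input and 21 in the mock input (2.27-fold, 1.48 to 3.57). These 4 genes stood above the 1.31-fold of all other genes by their intervals. Against them, Cox8a had 31 reads in the mutant IP against 43 in the mock IP (0.668-fold, 0.407 to 1.08), and Cox6b1, which bridges the dimer on the intermembrane side, had 0 reads in the mutant IP against 18 in the mock IP (at least 6.48-fold lower).

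Cox7a2l, which tethers complex III to complex IV in supercomplexes and is truncated in C57BL/6 mice, had 58 reads in the mutant IP, 7 in the mock IP, 0 in the mutant input and 16 in the mock input. It was 7.67-fold higher in the mutant IP than in the mock IP (3.50 to 19.9) and at least 3.84-fold lower in the mutant input than in the mock input. The 2 differences run opposite ways, as they did for Sdha. Forms of complex IV subunits that are restricted to particular tissues were read at low levels. Cox4i2, the lung form of subunit 4, had 24 reads in the mutant IP but 0 in the 3 other libraries, at least 7.41-fold higher than in the mock IP. Cox8c, known from testis, had 9 reads in the mutant IP but 0 in the others. Cox6b2, likewise a testis form, had 16 reads in the mutant IP against 29 in the mock IP (0.511-fold) and 0 in the inputs. The muscle forms Cox6a2, Cox7a1 and Cox8b had no entry under these symbols in the mRNA table. Striated muscle markers had 166 and 111 reads in the mutant and mock IPs, mostly from Acta1 (102 in the mutant IP against 97 in the mock IP).

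The mutant input against the mock input asks whether RNA levels differed between the transfected and the mock cells, and at this depth it could be read for few members. Together the genes had 263 reads in the mutant input and 275 in the mock input, 1.33-fold higher in value in the mutant (1.12 to 1.58), beside 1.5-fold for all other genes without Lars2, and 0.956-fold after centring. In bulk RNA, fewer cells with an RNA and less of it per cell cannot be told apart. Of 43 members measured, 21 were at least 2-fold higher in the mutant input and 11 at least 2-fold lower, and 25 of these 32 had 0 reads in 1 of the inputs. All 9367 features gave 37% higher and 21.8% lower, and the median log2 ratio was 0.51 against 0.86 for the members.

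Of the 6 members with at least 20 reads over both inputs, 1 was at least 2-fold higher and 2 lower. At that depth 24.9% of 2648 features were higher and 7.44% lower. Ndufa13 had 28 reads in the mutant input and 7 in the mock input, 5.56-fold higher in the mutant (2.37 to 15.1). Cox6a1 had 24 in the mutant input and 21 in the mock input (1.59-fold, 0.847 to 3.0) and Ndufaf7 25 in the mutant input and 27 in the mock input, so neither differed beyond counting error. Atp5b had 27 reads in the mutant input and 49 in the mock input (0.765-fold, 0.460 to 1.25). Atp5a1 had 5 in the mutant input and 30 in the mock input (0.231-fold, 0.0701 to 0.603), and Sdha 0 in the mutant input and 23 in the mock input. The 3 genes with the lowest ratios were therefore the F1 head subunits of ATP synthase and the flavoprotein of complex II, while Ndufa13 stood apart on the other side.

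On the deposited values, the IP stood above its input for most of these genes in both conditions, as for most features. Values of the whole mRNA table summed to 842828 in the mutant IP against 170740 in its input, and to 744012 against 116470 in the mock. The deposited IP over input ratios hold this difference in library totals, so their level does not measure recovery on the gel. Of 84 members measured in the mutant libraries, 56 were at least 4-fold higher in the mutant IP than in the mutant input and 2 lower (Ndufb3 and Cox6b1), and the median log2 ratio was 2.5. At 20 or more reads over the pair, 37 of 49 were higher and 0 lower. All 13637 features gave 61.1% higher and 2.32% lower and a median of 2.44, and at that depth 73.1% and 1.46%. Of 72 members measured in the mock libraries, 50 were at least 4-fold higher in the mock IP than in the mock input and none lower, and the median was 2.49, beside 60.6% and 1.92% of 13111 features and a median of 2.32. At 20 or more reads 30 of 37 were higher and 0 lower, beside 73.2% and 1.67% of features. After centring, 22 members were higher and 4 lower in each condition, of 77 measured in the mutant and 71 in the mock. All features gave 22.3% higher in both conditions, and 10% (mutant) or 10.8% (mock) lower. The members' medians were then 1.30 (mutant) and 1.42 (mock), against 0.83 and 0.86 for all features.

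The sums stood further from the rest than the medians did. Member values were 9.65-fold higher in the mutant IP than in its input (8.52 to 11) and 9.07-fold higher in the mock IP than in its input (8.01 to 10.3), against 3.55 and 4.05 for all other genes without Lars2. Without Atp5a1 and Atp5b the sums were still 7.54-fold and 8.47-fold higher in the mutant and mock IPs. By complex, the mutant ratio was 16.2 for complex V, 8.01 for IV, 6.59 for III and 5.55 for I, and the mock ratio was 13 for V, 7.38 for IV, 7.04 for III and 7.98 for I. Without Atp5a1 and Atp5b, complex V was 8.96-fold higher in the mutant and 25-fold in the mock, so the order of the conditions turned. Complex II was 181-fold higher in the mutant IP than in its input, on 1 input read, but 3.80-fold in the mock IP, below the 4.05 of all other genes. For complexes I, III, IV and V the ratio thus also stood above that of all other genes in mock cells, which carry no tagged protein. After centring, IP over input of the member sums was 1.67 in the mutant and 1.46 in the mock. All other genes without Lars2 were then at 0.614 and 0.651, and complex I was at 0.960 in the mutant.

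Cox4i1 had the highest IP over input of any named gene that was read in both libraries of each pair. It was 61.7-fold higher in the mutant IP (16.8 to 513) and 94.0-fold in the mock IP (16.5 to 3752), on 2 and 1 input reads. Atp5a1 was 56.1-fold higher in the mutant IP than in its input (23.9 to 174) but 10.8-fold in the mock. Atp5b was 19.1-fold and 10.4-fold higher in the mutant and mock IPs. Sdha was at least 39.8-fold higher in the mutant IP and 2.43-fold higher in the mock IP (1.47 to 4.15). In the mock pair, Atp5d and Atp5g2 were at least 22.3-fold and at least 20.7-fold higher in the IP. At the other end, among genes with at least 20 reads in the mutant pair, Ndufa13 was 1.21-fold higher in the mutant IP (0.751 to 2.0) and 7.0-fold in the mock IP (3.15 to 18.3), and Uqcr10 was 2.0-fold higher in the mutant IP. Among genes with at least 20 reads in the mock pair the lowest were Cox7a2l at 0.438 (0.152 to 1.12), Cox6a1 at 1.48 and Ndufaf7 at 1.56. Under centring Ndufa13, Uqcr10, Uqcr11, Cox6a1 and Ndufaf7 stood lower in the mutant IP than in its input, and Sdha, Sdhb, Cox6a1 and Ndufaf7 lower in the mock IP than in its input.

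Dividing IP over input in the mutant by IP over input in the mock gives the specific IP enrichment. Of 87 members measured, 19 were at least 4-fold higher and 9 at least 4-fold lower, beside 13.8% and 10.6% of 15060 features, and the median log2 value was 0.22 for the members and 0.13 for all features. Among the 63 members with at least 20 IP reads, 11 were higher and 6 lower, beside 12.5% and 8.16% of features. Under centring 13 of 85 members were higher and 13 lower, beside 13.9% and 13.6% of features. The sign of the members' median turned to -0.14, against -0.0126 for all features. Of the 28 genes past 4-fold, 24 had 0 reads in at least 1 input. Cox7a2l was highest at 5.45 on the log2 scale, followed by Sdha at 4.87, Ndufv2 at 4.74, Cox4i2 at 3.31 and Ndufb9 at 3.29. For Cox7a2l and Sdha most of the value came from the inputs, where the mutant had 0 reads and the mock 16 and 23. Their log2 mutant input over mock input was -2.89 and -3.35, beside 2.56 and 1.52 between the IPs. For Ndufv2 and Ndufb9, also with 0 reads in the mutant input, it was -1.14 and -1.58. The lowest with at least 20 IP reads were Ndufb7 at -3.87, Atp5j2 at -3.56, Ndufaf5 at -3.17, Atp5l (subunit g) at -2.47 and Uqcr11 at -2.31. Atp5l had 8 reads in the mutant IP, 12 in the mock IP, 5 in the mutant input and 0 in the mock input. All of these but Ndufaf5 had reads in the mutant input and 0 in the mock input. Cox6b1, with 18 reads over both IPs, stood lower still at -5.15. Complex II had the highest median of the complexes, 1.47 over 6 genes with 3 at least 4-fold higher and none lower, and complexes I and V the lowest, 0.09 and -0.09. Among genes with at least 20 IP reads the complex II median was 0.22 over 5 genes, below the 0.26 of complex IV.

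**Figure D4:**
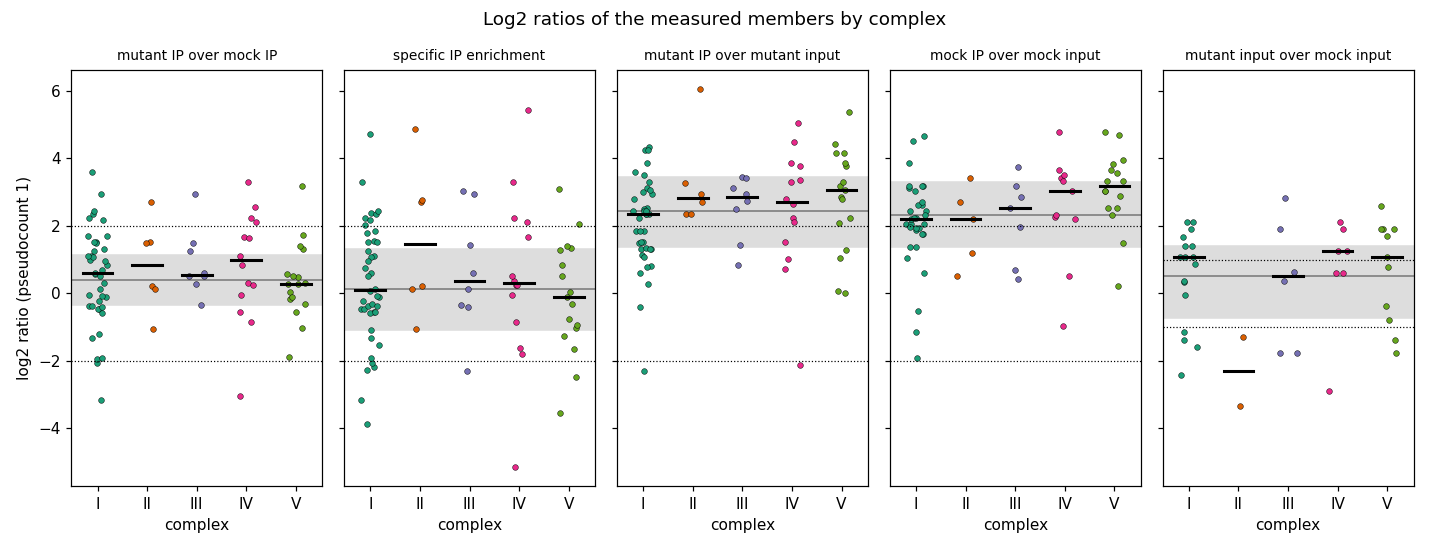
Log2 ratios of the members for each comparison, grouped by complex, with a black bar at each complex's median, a grey band and line for the quartiles and median of all features, and dotted lines at the fold threshold. Complex medians lie within the grey band in most panels, and complex II stands highest for the specific enrichment at 1.47, but not among genes with at least 20 reads (0.22, against 0.26 for complex IV).

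Related genes outside the name rule are given for the mutant IP against the mock IP. Of 27 measured genes for cytochrome c, cytochrome c1 and assembly of complexes III to V or I, 2 were at least 4-fold higher in the mutant IP and 2 lower, and the median log2 ratio was 0.19. Cycs, which carries electrons between complexes III and IV, had 100 reads in the mutant IP, 40 in the mock IP, 14 in the mutant input and 32 in the mock input, whereas Cyc1, the cytochrome c1 that hands them over, had 55 reads in the mutant IP, 90 in the mock IP, 14 in the mutant input and 20 in the mock input. Atpif1, the inhibitor of ATP synthase, had 156 reads in the mutant IP, 97 in the mock IP, 10 in the mutant input and 4 in the mock input. Surf1 and Sco2, both assembly factors of complex IV, had 16 and 0 reads in the mutant IP against 0 and 19 in the mock IP. In the tricarboxylic acid cycle, 0 of 13 genes were at least 4-fold higher and 1 lower, and the median was 0.48. The lower gene was Suclg2, with 11 reads in the mutant IP, 56 in the mock IP, 3 in the mutant input and 0 in the mock input. Mdh2 (malate dehydrogenase) had 223 reads in the mutant IP, 94 in the mock IP, 2 in the mutant input and 1 in the mock input. The 100 cytosolic ribosomal protein genes had 4 higher and 3 lower and a median at 0.44, and 68 measured mitochondrial ribosomal protein genes had 4 higher and 1 lower and a median at 0.32. For all of these lists, the values beside them over all features were 10.1% higher, 5.74% lower and a median of 0.38.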

How the data were processed

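The authors deposited one signal value per transcript and library. Reads were aligned with Bowtie to mm9, per the submitters' processing notes. How reads were counted, whether by strand, and how multiply aligned reads were treated was not given in the sources used here. Multiplying each deposited signal value by its library's factor gave whole reads for 100% of values (tolerance 0.02 reads). A count test was not run, since each group has 1 library.

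Only the mRNA table was used. In it 26 symbols stored as dates were restored through RefSeq accessions. All 90 members matched RefSeq (GRCm38.p6) and 87 kept their symbol. Log2 ratios used a pseudocount of 1, among features with a value of at least 1 in any library of the ratio, and counted 4-fold differences (2-fold between inputs). Intervals are exact conditional binomial (folds), Clopper-Pearson (shares) or Poisson (sums) at 95%, with a floor of 3 reads. Named genes were the 3 with the highest mean per complex, the extremes of each ratio among genes with at least 20 reads, those past 4-fold at that depth, tissue-restricted forms and subunit c genes. Sdhc, Sdhd, Sdhaf1, Ndufv1, Ndufb3, Uqcrb, Uqcrfs1, Cox5a, Cox8a and Cox6b1 were added after their values were seen. Genes of the other lists, such as Cycs, Cyc1, Atpif1, Surf1, Sco2, Suclg2, Mdh2 and Ppargc1a, were named outside these rules. The values of 1 member, which is in all counts and sums, are not reported here. The members, lists and rules were chosen with earlier results of these data known. Ratio code was tested on simulated reads. Alternatives were another pseudocount, other minimums, 3 scalings, a floor of 20 reads and the sums without Atp5a1 and Atp5b; the scaling without Lars2, that floor and those sums were chosen after seeing the data. Python 3.11.15, pandas 2.3.3, numpy 2.4.6, scipy 1.17.1 and matplotlib 3.10.9 were used.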

Additional observations from a re-analysis of the deposited data

Results flagged for a closer look

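For 5 members IP over input had opposite signs in the 2 conditions, a difference that was not tested because each condition has 1 library pair. On the log2 scale Cox7a2l was at 4.49 in the mutant and -0.96 in the mock. Ndufv2 was at 3.60 in the mutant and -1.14 in the mock, with 30 and 0 IP reads. Cox6b1 was at -2.11 in the mutant and 3.04 in the mock, with 0 and 18 IP reads. Ndufa6, a complex I subunit with 7 reads in the mutant IP, 2 in the mock IP, 0 in the mutant input and 4 in the mock input, was at 1.84 in the mutant and -0.53 in the mock. Ndufb6, a membrane-arm subunit with 5 reads in the mutant IP, 14 in the mock IP, 5 in the mutant input and 2 in the mock input, was at -0.41 in the mutant and 1.87 in the mock. The input of these genes had at most 16 reads. Which genes differ in sign also depends on the scaling. Under centring 16 of 76 members turned from higher to lower in the mutant pair and 12 of 70 in the mock pair. Sdha and Sdhb turned in the mock pair alone.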

How the results depend on the processing

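No paired analysis was possible because each group has 1 library. Centring, equal totals and equal totals without Lars2 moved the mutant IP over mock IP values as follows. The member median (0.52) was 0.14 under centring and 0.14 without Lars2, the summed ratio (1.41) 1.10, 1.25 and 1.08, and members at least 4-fold higher (13) 2, 4 and 4. A pseudocount of 5 gave 0 higher and 0 lower, a minimum of 5 gave 8 higher, and 20 reads gave 5 higher and 1 lower. For the specific enrichment the median (0.22) reversed to -0.14, -0.0123 and -0.17 under the 3 scalings. Its 19 higher were 2 with a pseudocount of 5, 12 without Lars2 and 11 at 20 reads, and its 9 lower were 2 with a pseudocount of 5.

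For mutant IP over input, the median (2.5) was 1.30, 1.39 and 1.5 under the 3 scalings, 1.13 with a pseudocount of 5, 3.06 with a minimum of 5 and 3.18 at 20 reads. Its 56 higher were 22, 24 and 26 under the scalings, 12 with a pseudocount of 5 and 37 at 20 reads, and its 2 lower were 4 under centring and 0 with a pseudocount of 5, a minimum of 5 or 20 reads. For mock IP over input, the median (2.49) was 1.42, 1.39 and 1.69, then 1.08, 3.04 and 3.17. Its 50 higher were 22, 22 and 27, then 8 with a pseudocount of 5 and 30 at 20 reads, and its 0 lower were 4, 4 and 2 under the scalings. The summed ratios were 1.67, 1.96 and 2.71 in the mutant (7.54 without Atp5a1 and Atp5b) and 1.46, 1.42 and 2.24 in the mock.

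For mutant input over mock input, the median (0.86) was 0.33 with a pseudocount of 5, 0 with no minimum and -0.0145 at 20 reads. Its 21 higher were 3 with a pseudocount of 5, 4 with a minimum of 5 and 1 at 20 reads, and its 11 lower were 3, 3 and 2. The summed ratio (1.33) reversed to 0.956, 0.906 and 0.886 under the scalings and was 1.64 without Atp5a1 and Atp5b. In mutant IP over input 16 of 76 members turned from higher to lower under centring, of which Atp5g3 (2.10) alone among the named genes had been past 4-fold and stood at -0.0684. In mock IP over input 12 of 70 turned. Between the IPs, 10 of 80 members turned from higher to lower under centring (Atp5a1, Atp5c1, Atp5g2, Atp5h, Cox7c, Ndufa11, Ndufs6, Sdhc, Sdhd and Uqcrc1), and with Cox7a2 11 of 81 without Lars2. Equal totals turned 3 of 81. The other 67 summary values stayed within 1.5 times the count or within the interval. The causes were not tested, except that a higher minimum or read floor leaves fewer genes. Input depth limits most IP over input values to a few reads.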

Other observations

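Glycolysis, the other source of ATP in these cells, was measured for 14 genes. Between the mutant IP and the mock IP 1 was at least 4-fold higher and 0 lower, beside 10.1% and 5.74% of all features. The median log2 ratio was 0.34. The 1 gene was Pfkm, the muscle form of phosphofructokinase, with 88 reads in the mutant IP, 13 in the mock IP, 0 in the mutant input and 5 in the mock input, and it was chosen after its values were seen. IP over input had a median of 3.24 for these genes in the mutant and 3.23 in the mock, against 2.5 and 2.49 for the oxidative phosphorylation genes. Among genes with at least 20 reads over the pair the medians were close, 3.24 and 3.33 against 3.18 and 3.17. Of 9 genes that drive transcription of mitochondrial genes, 0 were past 4-fold between the IPs, with a median of 0.12. Among them Ppargc1a, the coactivator PGC-1α, had 13 reads in the mutant IP, 6 in the mock IP, 18 in the mutant input and 51 in the mock input and so was read more in both inputs than in the IPs.

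Mitochondrial ribosomal protein promoters held the NRF1 core in 13.3% and the ETS core in 24.0% of 75, and cytosolic ribosomal protein promoters in 2.13% and 22.3% of 94, against 18.5% and 17.3% of 81 for the oxidative phosphorylation genes.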
